A study of Homo sapiens with 12 samples.

Results

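The HOXB cluster is a run of homeobox genes on chromosome 17 that are all transcribed from the minus strand, and HOXB13 lies apart from the others at its upstream end. Members were the genes whose symbol is HOXB followed by a number from 1 to 13, without antisense names. The rule found 7 genes, HOXB3, HOXB4, HOXB5, HOXB6, HOXB7, HOXB9 and HOXB13, of 13951 genes with values. HOXB1, HOXB2 and HOXB8 are annotated in the cluster and were not analysed here. RNA-seq was performed on derivatives of CWR22Rv1, a human prostate carcinoma cell line established from a relapsed xenograft, with 12 libraries in 4 groups of 3. Control cells carried Cas9 without a guide RNA, LV-MEIS1 cells expressed exogenous MEIS1 from a lentivirus, HOXB13ko cells carried Cas9 and received a guide RNA against HOXB13, and HOXB13ko-LV-MEIS1 cells were HOXB13ko cells infected with the same MEIS1 virus. All lines were grown in medium with puromycin and cultured for 48 h before RNA was harvested. The HOXB13ko line was a pool recombined from clones in which, per the study's methods, loss of HOXB13 protein was checked by western blot, so each group is 1 line or pool. Whether the 3 libraries of a group came from separate cultures is not stated, so p-values measure only the spread between these libraries.

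HOX proteins are homeodomain transcription factors that give cells positional identity along the body axis, and their genes lie along each cluster in the order of the regions they pattern. Genes at the 3′ end, such as HOXB3 and HOXB4, act in anterior regions, HOXB5 to HOXB9 in trunk regions, and HOXB13 in the tail, hindgut and urogenital region. HOXB13 stays on in the adult prostate epithelium and is widely used as a marker of prostate lineage. MEIS1 is a TALE homeodomain protein, a class of cofactors that bind DNA together with HOX proteins.

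The guide RNA is shown because the HOXB13ko labels rest on it. It matched chromosome 17 exactly at 1 place, chr17:48728454-48728473 (GRCh38, plus strand), in exon 1 of 2 of HOXB13 (ENSG00000159184, chr17:48724763-48728750). The capitals mark the PAM, the bases next to the target that Cas9 requires.
HOXB13 target site and PAM: ttgacagcaggcatcagcgtAGG
The cut falls after 123 of the 852 coding bases, directly before codon 42 of 284. Of the 3039 transcript bases, 90.8% lie beyond it. A gene-level read count can therefore still collect reads from an edited HOXB13 transcript, and cannot show whether it is translated. In the main transcripts of the other annotated HOXB genes, the closest sites followed by NGG differed from the guide at 8 to 10 positions.

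HOXB13 was also the member with no sequence shared with other genes. None of its 3009 different 31-base words occurred in another annotated gene, whereas the share was 28.9% for HOXB6, 9.84% for HOXB3, 5.46% for HOXB7, 3.55% for HOXB5, 1.72% for HOXB4 and 0.391% for HOXB9. HOXB6 shared the most with HOXB3, whose long transcripts overlap it on the same strand, at 15.4% of its words. HOXB7 had no exon overlap, and its shared words were spread over 1718 other genes, with HOXB6 the only HOX paralog among them. HOXB-AS3, an antisense RNA, overlapped 16.3% of the exon bases of HOXB6 and 3.93% of those of HOXB5 on the opposite strand. No use of strand is stated for the assignment of reads, so reads from these overlaps may be divided between the genes. Outside the overlaps, the homeodomain keeps paralogs alike, and examples of identical coding stretches are printed because reads were 50 bases long and the first example is longer than a read.
HOXB6 and HOXB7, chr17:48596545-48596595 (GRCh38, minus strand, in HOXB6): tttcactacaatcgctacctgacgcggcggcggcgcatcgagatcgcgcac
HOXB9 and HOXD9, chr17:48623060-48623099 (GRCh38, minus strand, in HOXB9): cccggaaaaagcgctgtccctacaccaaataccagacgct

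All values are CPM, read counts scaled to library size after the authors' library normalisation, and fold changes are on the log2(CPM + 0.5) scale, which understates changes of low genes. Read depth, estimated from the spacing of low CPM values, was between 17200000 and 28700000 per library. The cell type was checked against marker genes, and 5 of 5 luminal prostate genes were listed (KRT8, KRT18, KLK2, TMPRSS2 and FOXA1), while the 3 basal and 2 immune genes were not analysed here. The summed CPM of the luminal genes was 1340 to 1480 in Control, 1270 to 1350 in LV-MEIS1, 1220 to 1300 in HOXB13ko and 1230 to 1350 in HOXB13ko-LV-MEIS1. Within this sum KLK2, a kallikrein gene regulated by androgen, was lower in LV-MEIS1 (109 ± 3.12 CPM, SD, n = 3) than in Control (287 ± 6.60; treat adjusted p = 2.7e-07). It was 230 ± 7.25 CPM in HOXB13ko and 204 ± 21.4 in HOXB13ko-LV-MEIS1, the latter higher than LV-MEIS1 (treat adjusted p = 0.00268). KLK2 and HOXB13 moved the same way in these comparisons of LV-MEIS1. In HOXB13ko against Control they moved opposite ways. There the log2 fold change was -0.32 for KLK2 (eBayes adjusted p = 0.00198) and 0.74 for HOXB13 (eBayes adjusted p = 2.1e-06). Of 3 neuroendocrine genes only SYP was listed, at 14.4 to 17 CPM in Control, 1.24 to 2.14 in LV-MEIS1, 3.68 to 4.25 in HOXB13ko and 3.51 to 4.35 in HOXB13ko-LV-MEIS1. It was called by treat as lower than Control in LV-MEIS1 (adjusted p = 2.4e-08) and in HOXB13ko (adjusted p = 4.5e-05). Of 3 stromal genes COL1A1 and ACTA2 were listed, with summed CPM of 22.4 to 24.9 in Control, 34.7 to 40.7 in LV-MEIS1, 31.3 to 31.6 in HOXB13ko and 27.4 to 33.5 in HOXB13ko-LV-MEIS1. These genes went opposite ways in LV-MEIS1 against Control, COL1A1 from 14.5 to 32.8 CPM (treat adjusted p = 2.5e-04) and ACTA2 from 8.88 to 5.62 CPM (eBayes adjusted p = 7.5e-04). The part of these shifts in the HOXB values was not tested, and in bulk RNA fewer cells of a type and less RNA per cell cannot be told apart. MEIS1, the introduced gene, was 4.25 ± 0.202 CPM (SD, n = 3) in Control, 47.4 ± 1.96 in LV-MEIS1, 3.56 ± 0.118 in HOXB13ko and 29.7 ± 0.365 in HOXB13ko-LV-MEIS1.

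HOXB13, the posterior gene, was measured at 185, 215 and 187 CPM in the Control libraries and at 152, 150 and 151 CPM in LV-MEIS1. In the libraries labelled HOXB13ko it was 347, 326 and 307 CPM, and in those labelled HOXB13ko-LV-MEIS1 it was 326, 361 and 375 CPM. Both groups labelled as knockouts lay above every Control and LV-MEIS1 library, so the label did not go with lower mRNA. The count can hold reads from an edited transcript and does not bear on the protein, whose loss the study checked by western blot. Directions involving these libraries are given by label. LV-MEIS1 lay below Control without overlap, and the groups labelled HOXB13ko and HOXB13ko-LV-MEIS1 overlapped.

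HOXB5, a trunk gene, was measured at 8.95, 9.01 and 8.87 CPM in Control and at 15.8, 13.2 and 17.1 CPM in LV-MEIS1. It was 13.9, 13.7 and 13.9 CPM in HOXB13ko and 11, 14.3 and 10.3 CPM in HOXB13ko-LV-MEIS1. Control was lowest, with no overlap with any other group, and HOXB13ko-LV-MEIS1 overlapped both LV-MEIS1 and HOXB13ko.

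HOXB6, its neighbour in the cluster, had the same order of group means. It was 19.2, 18.1 and 18.1 CPM in Control, 23.7, 27.4 and 27.2 in LV-MEIS1, 26.9, 22.3 and 24.5 in HOXB13ko, and 20, 27.5 and 21.4 in HOXB13ko-LV-MEIS1. Control again lay below the other groups in every library, and the other groups overlapped one another.

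HOXB3, an anterior gene, was 7.72, 7.08 and 7.30 CPM in Control and 9.72, 13.5 and 11.5 CPM in LV-MEIS1. It was 8.51, 8.65 and 9.13 CPM in HOXB13ko and 7.95, 8.57 and 6.19 CPM in HOXB13ko-LV-MEIS1. LV-MEIS1 was highest in every library, and HOXB13ko-LV-MEIS1 overlapped both Control and HOXB13ko. HOXB7 was 7.26, 8.98 and 9.91 CPM in Control and 10.7, 10.8 and 12 CPM in LV-MEIS1, the group with the highest values, while the groups labelled as knockouts lay between 7.53 and 9.52 CPM.

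HOXB4 and HOXB9 had their highest mean in Control. HOXB4 was 6.51, 7.41 and 7.48 CPM in Control and 5.31, 5.57 and 5.99 CPM in HOXB13ko, and its LV-MEIS1 libraries overlapped Control. HOXB9, the most posterior listed trunk gene, was 3.90, 5.58 and 3.74 CPM in Control, 4.65, 3.47 and 4.96 CPM in LV-MEIS1, 3.10, 2.72 and 3.07 CPM in HOXB13ko, and 3.11, 3.29 and 3.23 CPM in HOXB13ko-LV-MEIS1. Every library labelled as a knockout lay below every Control and LV-MEIS1 library for HOXB9.

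**Figure D1:**
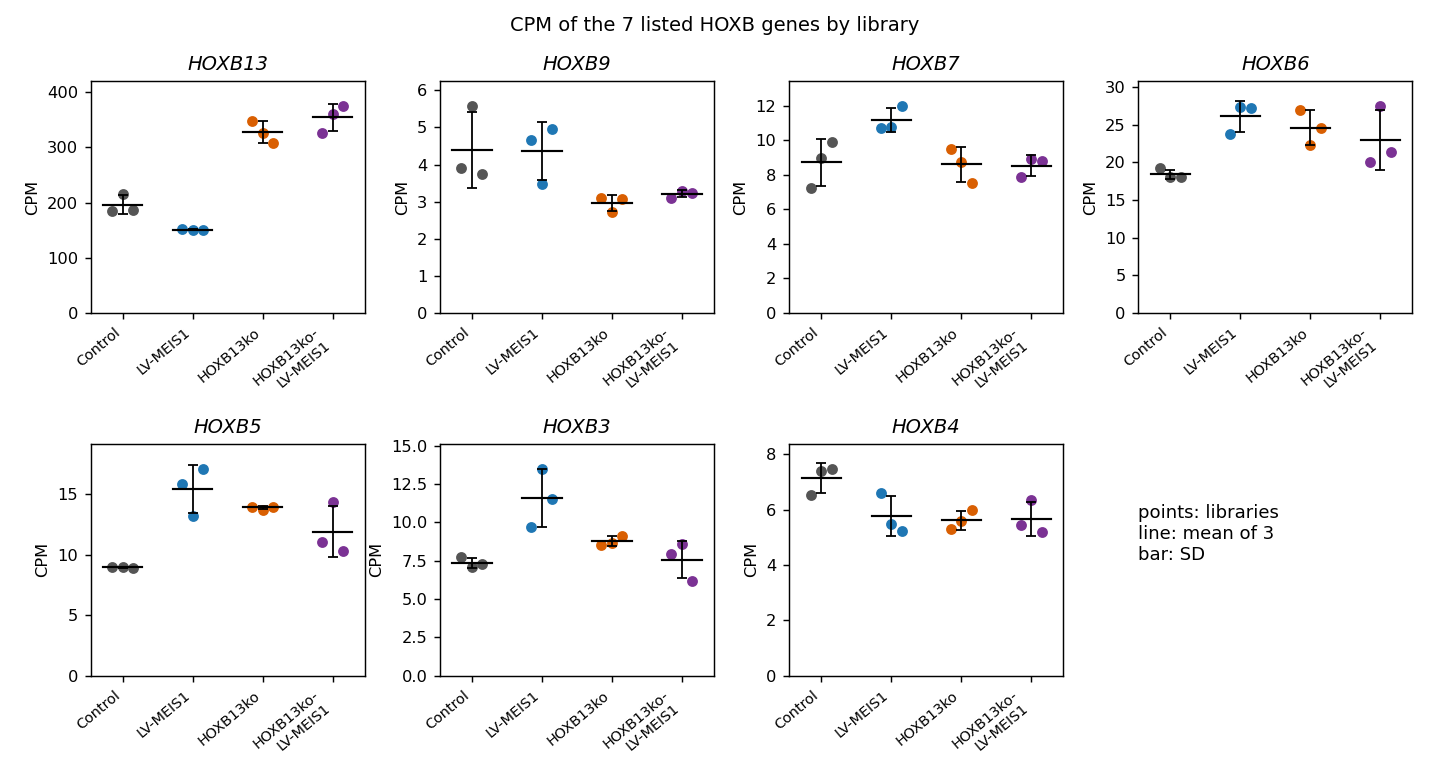
CPM of each HOXB gene in each library, with points for libraries, a line for the mean of 3 and a bar for the SD, on axes that start at 0. HOXB13 lies between 150 and 375 CPM and is highest in the libraries labelled as knockouts, whereas HOXB5 and HOXB6 are lowest in Control.

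Levels of different genes were compared per kb of the longest annotated transcript, with no test. In Control, HOXB13 had 64.4 ± 5.63 CPM per kb (SD, n = 3), HOXB6 9.41 ± 0.319, HOXB7 6.40 ± 0.988, HOXB5 4.81 ± 0.0384, HOXB4 3.56 ± 0.270, HOXB3 1.75 ± 0.0768 and HOXB9 1.70 ± 0.394. HOXB13 was far above the others, and HOXB3 and HOXB9 did not differ beyond their spread. The order of level did not follow the order along the cluster, since HOXB9, the nearest listed member to HOXB13 at 102.4 kb between starts, was with HOXB3 at the low end. With all annotated exons as the length, HOXB3 came to 0.992 CPM per kb and lay below HOXB9. With the shortest protein-coding transcript as the length, it came to 13 CPM per kb and moved from rank 6 to rank 2, so its place depends on the transcript taken for the length.

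**Figure D2:**
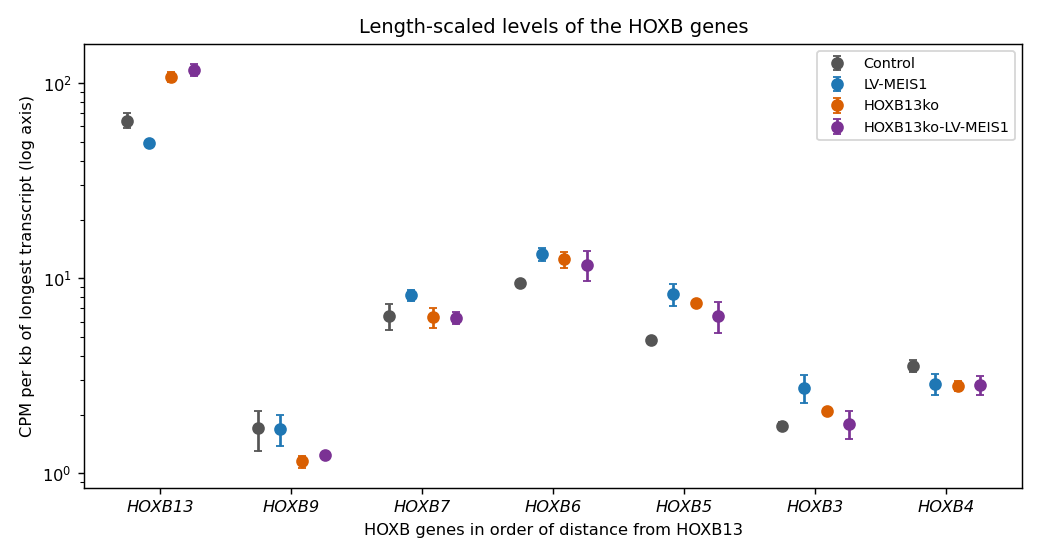
Mean CPM per kb of the longest annotated transcript on a log axis, with SD bars (n = 3), for the HOXB genes in order of distance from HOXB13. HOXB13 stands above all other members in the 4 groups, and HOXB9 is lowest in each.

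LV-MEIS1 was first compared with Control, which asks how exogenous MEIS1 goes with expression when HOXB13 has not been targeted. The sources do not say whether LV-MEIS1 cells carried Cas9 as Control cells did, so MEIS1 and the vector cannot be told apart. HOXB5, HOXB3, HOXB6 and HOXB7 were higher in LV-MEIS1 and HOXB13 was lower, and none of these differences passed the test for a change beyond 1.5-fold. The log2 fold change was 0.74 ± 0.11 (SE) for HOXB5, 0.61 ± 0.13 for HOXB3, 0.49 ± 0.11 for HOXB6, 0.35 ± 0.12 for HOXB7 and -0.37 ± 0.07 for HOXB13. With limma's treat test, 0 of 7 members were called, where 3.99% of all genes were, and 0 of 7 reached p under 0.05 before adjustment. Tested by eBayes against no change, 5 of 7 were called, 4 higher and 1 lower, where 44.5% of all genes were. The eBayes adjusted p was 1.2e-04 for HOXB5, 0.00153 for HOXB3, 0.00208 for HOXB6, 0.027 for HOXB7 and 4.9e-04 for HOXB13. The call for HOXB7 was lost without Control replicate 1 (adjusted p = 0.118) or without LV-MEIS1 replicate 3 (adjusted p = 0.0944). HOXB4 had a log2 fold change of -0.29 ± 0.12 (eBayes adjusted p = 0.0564), which passed without Control replicate 1 (0.0401) or LV-MEIS1 replicate 1 (0.0238), and HOXB9 had -0.01 ± 0.16 (0.975). The median over the members was 0.35, beside 0.007 over all genes.

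The comparison of HOXB13ko with Control asks how expression differs in cells given the HOXB13 guide. The HOXB13ko line was recombined from clones and no such step is stated for Control, so the guide and the choice of clones cannot be told apart. HOXB13 itself, HOXB5 and HOXB6 were higher in the libraries labelled HOXB13ko, and HOXB9 and HOXB4 were lower. The log2 fold change was 0.74 ± 0.07 (SE) for HOXB13, 0.60 ± 0.11 for HOXB5, 0.40 ± 0.11 for HOXB6, -0.48 ± 0.16 for HOXB9 and -0.32 ± 0.12 for HOXB4. The treat test called 0 of 7 members, where it called 1.41% of all genes and where 1 member had an unadjusted treat p under 0.05, and eBayes called 5 of 7, 3 higher and 2 lower, where it called 32.9%. The eBayes adjusted p was 2.1e-06 for HOXB13, 0.00133 for HOXB5 and 0.0115 for HOXB6. For HOXB9 (0.0288) and HOXB4 (0.0494) the call rested on single libraries. HOXB9 lost it without Control replicate 2 (adjusted p = 0.154), HOXB13ko replicate 2 (0.0941) or HOXB13ko replicate 3 (0.0622), and HOXB4 lost it in 5 of the 6 fits that left out 1 of these libraries, with adjusted p from 0.0722 to 0.142. HOXB3 was at 0.24 ± 0.13 (0.168) and HOXB7 at -0.01 ± 0.12 (0.948), and the median over the members was 0.24, beside -0.002 over all genes.

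The MEIS1 comparison was then made within cells given the guide, as HOXB13ko-LV-MEIS1 against HOXB13ko. No member was called by treat, where 0.00717% of all genes were, or by eBayes, where 0.0502% were, and 0 of 7 had an unadjusted p under 0.05 in either limma test. The 1 gene that treat called over all genes was MEIS1, the introduced gene. HOXB5 had a log2 fold change of -0.23 ± 0.11 with a 95% interval from -0.47 to 0.02, HOXB3 -0.21 ± 0.13 (-0.48 to 0.06), HOXB6 -0.10 ± 0.11 (-0.33 to 0.13) and HOXB13 0.12 ± 0.07 (-0.03 to 0.26). HOXB7 was at -0.01 (-0.26 to 0.25), HOXB4 at 0.01 (-0.24 to 0.26) and HOXB9 at 0.10 (-0.23 to 0.44). Every point estimate lay within 0.23 of no change, but the intervals reach from -0.48 to 0.44, so larger changes are not excluded.

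The difference between the MEIS1 comparisons, coded as the effect against Control minus the effect against HOXB13ko, was tested directly. It was 0.97 ± 0.16 (SE) for HOXB5, 0.81 ± 0.18 for HOXB3, 0.59 ± 0.15 for HOXB6 and -0.49 ± 0.10 for HOXB13. With eBayes, these 4 of 7 members were called, where 34.2% of all genes were, with adjusted p of 4.7e-04, 0.00349, 0.00877 and 0.00158. With treat, 0 of 7 were called, where 2.93% of all genes were, and 1 of 7, HOXB5, had an unadjusted p under 0.05 (adjusted p = 0.336). Without HOXB13ko-LV-MEIS1 replicate 2, whose HOXB5 was 14.3 CPM, the HOXB5 value was 1.10 and passed treat (adjusted p = 0.0486). MEIS1 itself was lower in HOXB13ko-LV-MEIS1 than in LV-MEIS1, with a log2 fold change of -0.66 ± 0.07, so the dose of MEIS1 and the label HOXB13ko cannot be told apart in this difference.

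The comparison of HOXB13ko-LV-MEIS1 with LV-MEIS1 asks how expression differs by the label HOXB13ko among cells given the MEIS1 virus. It held the one member called for a change beyond 1.5-fold, HOXB13, with a mean of 354 against 151 CPM, a log2 fold change of 1.23 ± 0.07 (SE) and a treat adjusted p of 3.9e-06. That is 1 of 7 members, where 6.71% of all genes were called. The eBayes test called 4 of 7, where it called 50.1% of all genes, adding HOXB3 at -0.58 ± 0.13 (adjusted p = 0.00167), HOXB7 at -0.37 ± 0.12 (0.0181) and HOXB5 at -0.36 ± 0.11 (0.0159). The calls for HOXB5 and HOXB7 were lost without LV-MEIS1 replicate 3 (0.0799 and 0.0717) or HOXB13ko-LV-MEIS1 replicate 1 (0.058 and 0.0688), and that for HOXB5 also without HOXB13ko-LV-MEIS1 replicate 3 (0.0805). HOXB9 was at -0.38 ± 0.16 and passed without LV-MEIS1 replicate 2 (0.0183). HOXB6 was at -0.19 ± 0.11 and passed without HOXB13ko-LV-MEIS1 replicate 2 (0.013), and HOXB4 was at -0.02 ± 0.12. MEIS1 itself was lower in HOXB13ko-LV-MEIS1, at 29.7 CPM, than in LV-MEIS1, at 47.4 CPM (log2 fold change -0.66 ± 0.07). Whether LV-MEIS1 cells carried Cas9 is not stated, and the HOXB13ko line was a pool recombined from clones. In this comparison the guide, the dose of MEIS1, Cas9 and the choice of clones therefore cannot be told apart. Several of these comparisons share libraries, so their values are given side by side and are not independent of each other.

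**Figure D3:**
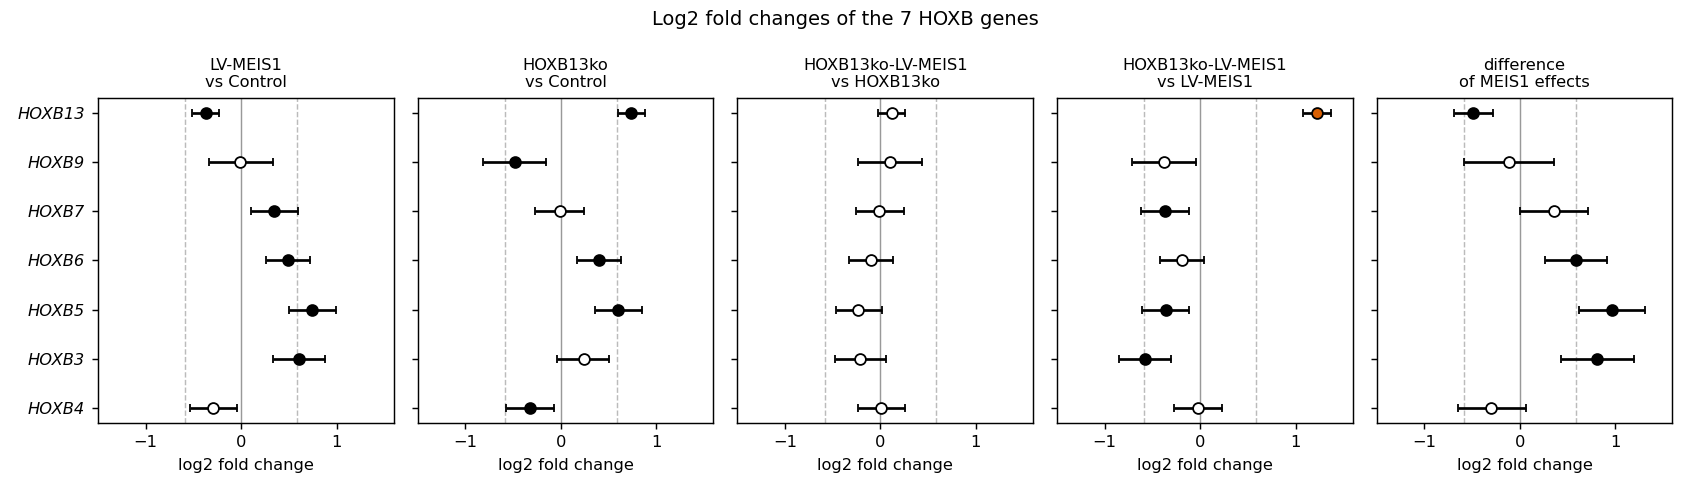
Log2 fold change of each HOXB gene in the 5 comparisons, with 95% intervals, dashed lines at a 1.5-fold change, filled black points for genes called by eBayes and an orange point for the gene called by treat. HOXB13 in HOXB13ko-LV-MEIS1 against LV-MEIS1, at 1.23, is the one orange point, and no point is filled in HOXB13ko-LV-MEIS1 against HOXB13ko.

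Along the cluster, HOXB5, HOXB3 and HOXB6, whose starts lie 135.0, 138.5 and 123.8 kb from that of HOXB13, had the highest log2 fold changes in LV-MEIS1 against Control. By start site, HOXB4, at 150.4 kb, and HOXB9, at 102.4 kb, lie beyond them on each side, with HOXB7 in between, and were at -0.29 and -0.01, although HOXB4 lies within the annotated span of HOXB3. HOXB-AS3, an antisense RNA whose span covers HOXB4, HOXB5 and HOXB6 and most of HOXB3, was 2.18 ± 0.501 CPM (SD, n = 3) in Control and 4.81 ± 0.994 in LV-MEIS1, with a log2 fold change of 0.99 ± 0.17 (eBayes adjusted p = 3.4e-04, treat adjusted p = 0.315). It was 0.85 ± 0.17 in HOXB13ko against Control (eBayes adjusted p = 0.00211). Its exons overlap those of HOXB3, HOXB5 and HOXB6, 3 of the 4 members that were higher in LV-MEIS1, and the part of shared reads in these values was not tested.

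PRAC1 and PRAC2, prostate-expressed genes between HOXB13 and HOXB9, were examined beside it. PRAC1 was 2.41 ± 0.319 CPM in Control and 2.78 ± 0.230 in HOXB13ko, a log2 fold change of 0.17 ± 0.15 (eBayes adjusted p = 0.377). PRAC2 was 13.1 ± 1.78 CPM in Control and 10.3 ± 0.483 in HOXB13ko, a log2 fold change of -0.32 ± 0.10 (eBayes adjusted p = 0.022), while HOXB13 was at 0.74.

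Outside the cluster, the nearest listed genes were TTLL6, 33.5 kb beyond HOXB13, and SKAP1, 98.3 kb beyond the other end. TTLL6, of the tubulin polyglutamylase family, was 2.15 ± 0.131 CPM in Control, 5.16 ± 1.07 in LV-MEIS1 and 4.59 ± 0.286 in HOXB13ko, with eBayes adjusted p of 1.1e-04 and 7.5e-04 and no call by treat. SKAP1, an adaptor of T cell receptor signalling, was 1.14 ± 0.250 CPM in Control and 0.446 ± 0.107 in LV-MEIS1 (eBayes adjusted p = 0.00457). IGF2BP1, which encodes an mRNA-binding protein and lies 268.6 kb beyond HOXB13, was the one neighbour called by treat. It was 23.4 ± 2.60 CPM in Control and 46.5 ± 2.04 in LV-MEIS1 (log2 fold change 0.98 ± 0.08, treat adjusted p = 0.00608). The HOXB13ko-LV-MEIS1 libraries had 14.4 ± 1.16 CPM, a log2 fold change of -1.66 ± 0.08 relative to LV-MEIS1 (treat adjusted p = 1.6e-07). Of the 14 listed genes within 500 kb of the cluster or inside it that are no members, eBayes called 9 in LV-MEIS1 against Control, 6 higher and 3 lower, with a median of 0.14, where 44.5% of all genes were called. It called 5 in HOXB13ko against Control, 2 higher and 3 lower, with a median of 0.06, where 32.9% were, so this count is near the share over all genes.

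**Figure D4:**
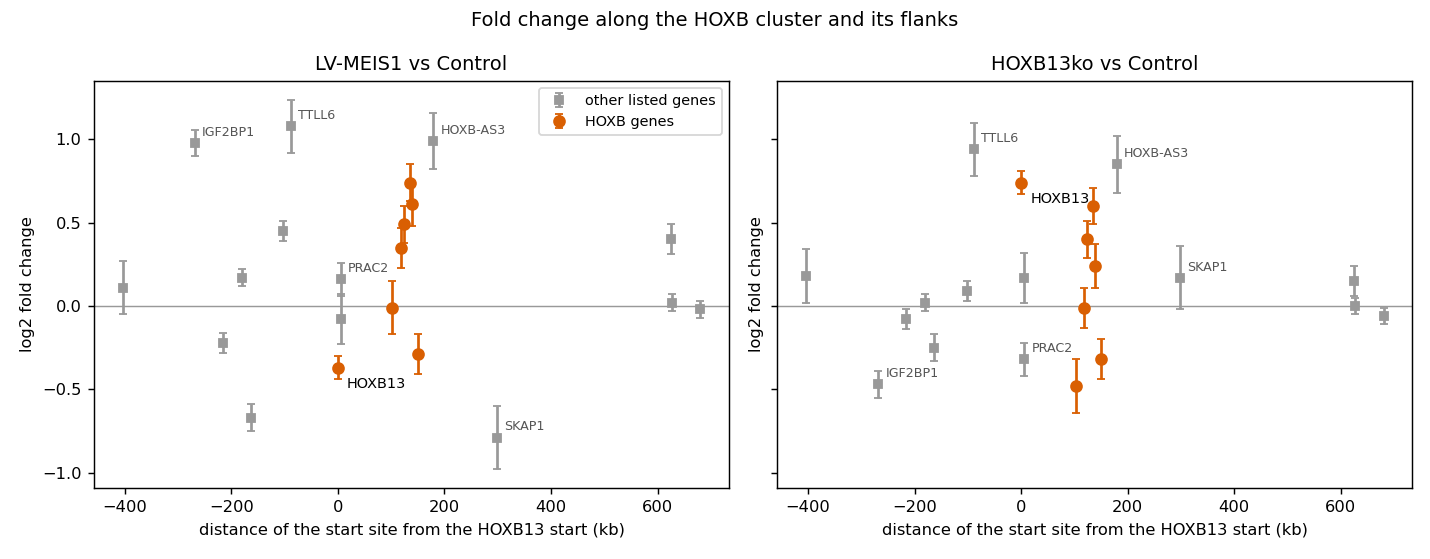
Log2 fold change with SE against the distance of each start site from that of HOXB13 in kb, positive towards HOXB1, for HOXB genes (orange) and other listed genes (grey) in LV-MEIS1 and HOXB13ko against Control. HOXB13, at 0 kb, is at -0.37 in the first panel and 0.74 in the second, while PRAC1 and PRAC2 beside it lie between -0.32 and 0.17.

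The other HOX clusters had 20 listed genes, 10 of HOXA, 9 of HOXC and 1 of HOXD. In LV-MEIS1 against Control eBayes called 11, 6 higher and 5 lower, with a median of 0.02, where it called 44.5% of all genes. In HOXB13ko against Control it called 4, 3 higher and 1 lower, with a median of -0.05, where it called 32.9%. In LV-MEIS1 against Control treat called 1 of the 20, where it called 3.99% of all genes, so this count is near that share. It was HOXD9, the listed HOXD gene and a paralog of HOXB9, at 0.662 ± 0.241 CPM in Control and 2.49 ± 0.422 in LV-MEIS1 (log2 fold change 1.38 ± 0.19, treat adjusted p = 0.0164), whereas HOXB9 was at -0.01. HOXD9 was low in Control, at 0.407, 0.692 and 0.887 CPM.

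TALE cofactors bind DNA with HOX proteins. Of 8 on the list 6 were listed, and treat called MEIS1, the introduced gene, in HOXB13ko-LV-MEIS1 against HOXB13ko and in LV-MEIS1 against Control. By eBayes, beside 44.5% and 32.9% of all genes, 1 was higher and 1 lower there (median 0.15), and 0 were higher and 2 lower in HOXB13ko against Control (median -0.36). MEIS3, a relative of MEIS1, was called in HOXB13ko-LV-MEIS1 against LV-MEIS1, from 2.69 ± 0.562 to 0.766 ± 0.0692 CPM (treat adjusted p = 0.00364). It was also lower in HOXB13ko, at 1.1 CPM, than in Control, at 2.44 CPM (eBayes adjusted p = 9.9e-04, no call by treat). Its difference between the MEIS1 comparisons was not called (eBayes adjusted p = 0.134), and all these levels are low.

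The chromatin regulators of HOX clusters showed no call by limma treat in any of the 5 comparisons, and at an unadjusted p under 0.05 there were at most 2 Polycomb genes and 0 of the others. The eBayes counts that follow compare LV-MEIS1 with Control, where 44.5% of all genes were called, and then HOXB13ko with Control, where 32.9% were. Polycomb proteins keep HOX genes silent, and of 19 listed eBayes called 4 higher and 1 lower in LV-MEIS1 against Control (median 0.04) and 2 higher and 0 lower in HOXB13ko against Control (median -0.01), both below the share over all genes. Of the 5 comparisons, the one with the most Polycomb calls was HOXB13ko-LV-MEIS1 against LV-MEIS1, where 8 of 19 were called, 4 higher and 4 lower (median 0.08), beside 50.1% of all genes. Trithorax proteins and demethylases keep them active, and of 9 listed 2 were higher and 1 lower with LV-MEIS1 (median 0.01), and with HOXB13ko 0 higher and 2 lower (median 0.02). Of 6 architectural genes, CTCF and cohesin subunits, 2 were higher (median 0.03), then 0 in either direction (median 0.11). Retinoic acid and CDX factors open the cluster in the embryo, and of 12 only 5 were listed, of which 1 was lower in each comparison (medians -0.18 and -0.12).

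For the members whose group means differed by at least 0.5 on the log2 scale, the genes with the most similar pattern over the 12 libraries were sought among those averaging 5 CPM or more, by the root mean square difference of centred log2 values. For HOXB13 these were CTSH (0.088), LPAR3 (0.102) and DGAT2 (0.109), beside a median of 0.535 over 11549 genes. CTSH, a lysosomal cysteine protease gene, had means of 19.6 CPM in Control, 13.4 in LV-MEIS1, 30.3 in HOXB13ko and 34.9 in HOXB13ko-LV-MEIS1. For HOXB5 they were ITGA7 (0.122), FAM218A (0.134) and DTNA (0.136), and for HOXB3 SLC25A35 (0.085), ZNF10 (0.093) and ZNF615 (0.093), beside medians of 0.344 and 0.316. No HOX gene was among these nearest genes.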

How the data were processed

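RNA-seq was read from poly-A libraries with single-end 50 bp reads. The deposited values are CPM. Per the labels and the study's methods, the authors trimmed reads (Trimmomatic 0.38), pseudo-aligned them to GRCh38 transcripts with kallisto 0.43.1, summed estimated counts to genes, removed low genes and normalised libraries in edgeR 3.22.2. Reads matching several transcripts were thereby divided between them. Of 13993 rows, 42 exact repeats were left out. Between 48.4% and 61.1% of values under 1 CPM lay within 0.1 of a whole read, so reads were not recovered and depth is an estimate. Log2(CPM + 0.5) was modelled over 12 libraries with 1 mean per group (limma 3.58.1, R 4.3.3). Genes were called at a Benjamini-Hochberg adjusted p under 0.05 over all genes, by treat against 1.5-fold or by eBayes against no change. On simulated data with 200 changed genes, in LV-MEIS1 against Control, treat called 69% of genes changed 2-fold and 98% of those changed 4-fold, among 13951. Positions and lengths came from GENCODE 44 (GRCh38). Named genes were all members, MEIS1, PRAC1, PRAC2, HOXB-AS3, the nearest neighbours, list, marker or neighbouring genes called by treat, and the 3 most similar genes per member. The members and lists were chosen with earlier results of these data known, and some list genes and a sequence are not reported here. Alternatives were other pseudocounts, a CPM filter, scalings, a replicate block, pairwise fits and leaving out libraries. Figures were drawn with matplotlib 3.10.9.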

Additional observations from a re-analysis of the deposited data

Results flagged for a closer look

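By limma's eBayes test of the difference itself, the MEIS1 comparison differed for 4 of 7 HOXB genes, where 34.2% of all genes were called. It was made in cells not given the guide and in cells labelled HOXB13ko, and treat called 0 of 7. MEIS1 was 47.4 CPM in LV-MEIS1 and 29.7 in HOXB13ko-LV-MEIS1, and whether LV-MEIS1 cells carried Cas9 is not stated. The dose of MEIS1, the vector and the label HOXB13ko therefore cannot be told apart. The difference on the log2 scale was 0.97 ± 0.16 (SE) for HOXB5, 0.81 ± 0.18 for HOXB3, 0.59 ± 0.15 for HOXB6 and -0.49 ± 0.10 for HOXB13.

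Among the other genes named, it was 1.21 ± 0.24 for HOXB-AS3, -0.99 ± 0.28 for SKAP1, 1.27 ± 0.23 for TTLL6, 1.2 ± 0.12 for IGF2BP1 and 1.56 ± 0.28 for HOXD9. For MEIS1 it was 0.44 ± 0.11, which concerns the level of the introduced gene itself. For IGF2BP1 the difference also passed treat, with an adjusted p of 0.00429. Among the cell type markers it was -1.22 ± 0.09 for KLK2, -2.93 ± 0.21 for SYP, 1.32 ± 0.12 for COL1A1 and -0.66 ± 0.17 for ACTA2, and all but ACTA2 passed treat. Single outlying libraries were not looked for within groups of 3.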

How the results depend on the processing

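Every call by treat among the HOXB genes held under the pseudocounts, filter, scalings, block, pairwise fits and omissions of a library, and the one gain was HOXB5 in the difference of the MEIS1 effects, given above. The calls by eBayes, whose alternatives were added after the data were seen, were less stable. Members called numbered 3 in place of 5 in HOXB13ko against Control with the replicate block, and 2 in place of 4 in HOXB13ko-LV-MEIS1 against LV-MEIS1 with quantile normalization. Leaving out 1 library gave 3 to 5 and 2 to 5 there, and 4 to 6 in LV-MEIS1 against Control. HOXB13, HOXB5 and HOXB6 in HOXB13ko against Control, and these with HOXB3 in LV-MEIS1 against Control, kept their eBayes call in every setting. The replicate numbers did not pair the libraries (correlations of deviations from -0.209 to 0.146), so the block is a check only.

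With eBayes in place of treat, members called were 5 for LV-MEIS1 over Control, 5 for HOXB13ko over Control, 4 for HOXB13ko-LV-MEIS1 over LV-MEIS1 and 4 for the difference, in place of 0, 0, 1 and 0. Genes called over all genes were 6207, 4590, 6993 and 4771 in place of 557, 197, 936 and 409. Between the lines given the guide 7 genes were called by eBayes, and 2 with a pseudocount of 0.1, the replicate block or only the 6 libraries, in place of 1. Leaving out 1 library gave 0 to 1 members called by treat in the difference.

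Signs turned only for members near no change. With equal sums, HOXB9 was 0.008 in LV-MEIS1 over Control and HOXB4 -0.013 between the lines given the guide. With quantiles, HOXB7 was 0.012 in HOXB13ko over Control and 0.046 between the lines given the guide, and HOXB4 was 0.099 in HOXB13ko-LV-MEIS1 over LV-MEIS1. Leaving out 1 library gave HOXB9 -0.103 to 0.157 in LV-MEIS1 over Control and -0.205 to 0.055 in the difference. It gave HOXB7 -0.131 to 0.081 in HOXB13ko over Control and -0.095 to 0.064 between the lines given the guide, where HOXB4 was -0.072 to 0.064. HOXB4 was -0.099 to 0.072 in HOXB13ko-LV-MEIS1 over LV-MEIS1. The causes were not tested. Levels per kb in Control became 0.992 and 13 for HOXB3 and 7.08 and 11 for HOXB6 with all exons and with the shortest coding transcript.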
